A study of Mus musculus with 12 samples.

Results

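The genes described here are 27 of the mouse cholesterol pathway, from the enzymes of the mevalonate route and the sterol route to the sterol-sensing proteins around SREBP2 and 4 genes of cholesterol movement and storage. They were chosen by gene symbol from a list of the pathway, with earlier results of these data known. All 27 were among the 47729 genes counted. RNA was sequenced from adherent peritoneal macrophages of C57BL/6 mice in 12 libraries. The study asked how SPARC, a secreted matricellular protein, acts on macrophages. The labels give no age or sex of the mice and do not say whether each replicate was a mouse of its own, and p-values therefore cover the spread between these libraries only. There were 4 groups of 3 libraries. In the IL4c SPARC group, mice had been given 2 injections of an interleukin-4 complex into the peritoneum, each made of 5 ug of interleukin-4 bound to 25 ug of an antibody against it, and their cells were then cultured for 24 h with SPARC at 20 ug/ml. Cells of the IL4c untreated group came from the same injection and were cultured for 24 h without SPARC. The TG SPARC and TG untreated groups came from mice given 3% thioglycollate, an irritant that draws monocytes into the peritoneum, and were cultured in the same way with and without SPARC. Cells were collected 2 days after the last IL4c injection or 4 days after thioglycollate, 3000000 were seeded in each well, and cells that had not attached after 2 h were washed away, so each library was a bulk sample of what remained.

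Cells make cholesterol from acetyl-CoA through mevalonate, the isoprenoid farnesyl pyrophosphate, squalene and lanosterol. The transcription factor SREBP2 is held in the endoplasmic reticulum by SCAP and the INSIG proteins while sterol is plentiful. When sterol falls, SCAP carries SREBP2 to the Golgi, where it is cut, and the released part drives the synthesis genes and Insig1. Macrophages also take in cholesterol through lysosomes, where NPC2 and NPC1 pass it out, and store the surplus as cholesteryl ester.

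Promoter windows from RefSeq on GRCm38.p6, the 250 bases before the transcription start, were found for 22 of the 27 genes, in 28 windows because some genes have several starts. The windows of Hmgcs1, Idi1, Insig1 and Srebf2 are printed because Hmgcs1 had the smallest p of the 27 genes in the SPARC comparison of IL4c cells, Idi1 and Insig1 had the lowest log2 differences there among the enzymes and among the control genes, and Srebf2 encodes the factor itself. They lie on the plus strand at chr13:119690101-119690350, chr13:8885356-8885605, chr5:28071162-28071411 and chr15:82147019-82147268, in that order. Capitals mark matches on either strand to 3 motifs. They were the sterol regulatory element in the strict form TCACNCCAC, the NF-Y box CCAAT and the Sp1 box GGGCGG. The NF-Y box reads ATTGG and the Sp1 box CCGCCC on the other strand. No matched base was shared between motifs.
Hmgcs1: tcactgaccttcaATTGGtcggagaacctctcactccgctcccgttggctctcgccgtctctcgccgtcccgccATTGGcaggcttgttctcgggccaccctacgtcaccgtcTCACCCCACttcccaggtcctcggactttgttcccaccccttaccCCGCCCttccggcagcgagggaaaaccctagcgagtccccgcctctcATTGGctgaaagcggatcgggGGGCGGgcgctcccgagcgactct
Idi1: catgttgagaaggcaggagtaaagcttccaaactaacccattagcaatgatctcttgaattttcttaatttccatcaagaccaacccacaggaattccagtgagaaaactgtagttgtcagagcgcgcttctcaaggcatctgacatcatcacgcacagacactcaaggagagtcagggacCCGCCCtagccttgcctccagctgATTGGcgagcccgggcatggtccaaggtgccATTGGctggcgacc
Insig1: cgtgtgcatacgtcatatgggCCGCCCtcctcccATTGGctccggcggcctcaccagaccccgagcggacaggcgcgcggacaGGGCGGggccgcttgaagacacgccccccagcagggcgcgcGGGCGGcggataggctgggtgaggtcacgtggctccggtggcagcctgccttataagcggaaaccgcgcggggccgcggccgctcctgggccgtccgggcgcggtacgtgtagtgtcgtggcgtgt
Srebf2: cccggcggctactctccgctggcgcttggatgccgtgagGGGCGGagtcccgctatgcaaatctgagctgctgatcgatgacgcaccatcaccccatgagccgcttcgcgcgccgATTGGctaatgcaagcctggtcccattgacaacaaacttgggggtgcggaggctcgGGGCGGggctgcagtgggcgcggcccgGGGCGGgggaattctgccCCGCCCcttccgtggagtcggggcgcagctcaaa

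The strict form TCACNCCAC was found in 1 of the 28 windows, that of Hmgcs1, where it starts 137 bases before the transcription start. It was found in 1.05% of the 32851 windows of all mouse genes. Near matches were not searched for, so a window without a match is not read as lacking the element. CCAAT was found in 20 of the 28 windows and in 33.8% of all windows. GGGCGG was found in 21 of the 28 windows and in 32.7% of all windows. A match is a description of the letters only, and binding was not measured.

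Total counts per library lay between 31501941 and 42288785, and the lowest count of any of the 27 genes in any library was 64.8, for Tm7sf2. All 27 passed the low-count filter, with 15232 genes tested in all. Of 7 macrophage markers, Adgre1, Csf1r, Cd68, Itgam, Lyz2 and Mertk were each above 88 CPM in every library, while Fcgr1 was as low as 5.84 CPM, in an IL4c untreated library. The summed level of the 7 was 12660 to 18540 CPM (counts scaled to library size) in IL4c SPARC libraries, against 20250 to 27680 CPM in IL4c untreated libraries. The lysozyme gene Lyz2 gave 4444 to 9577 CPM of it in IL4c SPARC libraries and 11680 to 20370 CPM in IL4c untreated libraries. The other macrophage markers did not all fall. Mertk and Cd68 were also lower in every IL4c SPARC library than in any IL4c untreated library. Fcgr1 was higher in every IL4c SPARC library, at 101.1 to 267.6 CPM, than in any IL4c untreated library. Itgam was higher with SPARC in each same-numbered IL4c pair, though its groups overlapped, as did those of Adgre1 and Csf1r. The summed level of the 7 macrophage markers was 29940 to 30800 CPM in TG SPARC libraries and 22020 to 34600 CPM in TG untreated libraries. The 7 neutrophil markers summed to 25.6 to 51.8 CPM in the 6 SPARC libraries, against 6.84 to 11.5 CPM in the 6 untreated libraries. The sum was nearly all S100a8. No other marker of that list passed 0.574 CPM in any library, and Ly6g was at 0 in all untreated libraries and at most 0.029 CPM with SPARC. The TG libraries numbered 1 stood apart from their groups, with 6 B cell markers summing to 750.5 CPM in the TG SPARC library numbered 1 and 1211 CPM in the TG untreated library numbered 1. In the other 10 libraries no B cell sum passed 182.4 CPM. The B cell sum was lower with SPARC in 6 of 6 same-numbered pairs, at 28.1 to 78.7 CPM in IL4c SPARC libraries, against 61.7 to 182.4 CPM in IL4c untreated libraries. The part of these markers and of Lyz2 in the results below was not tested, and fewer cells of a type cannot be told apart from less RNA per cell in bulk samples.

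Levels compared between genes are given per length, as FPKM (fragments per kilobase, scaled to library size). Averaged over the 12 libraries, Npc2 was the highest of the 27 genes at 448 FPKM, followed by Soat1 at 307 FPKM and Npc1 at 87.1 FPKM. Over the 12 libraries the highest synthesis enzymes were Ebp at 42.7 FPKM, Msmo1 at 33.4 FPKM and Hmgcs1 at 25.1 FPKM. Insig1 stood at 29.0 FPKM and Srebf2 at 23.1 FPKM. The lowest 3 genes were Tm7sf2 at 3.88 FPKM, Acat2 at 3.58 FPKM and Hsd17b7 at 2.22 FPKM. The order of the enzymes differed between groups: in IL4c SPARC cells Mvd averaged 17.1 FPKM and Sc5d 14.0 FPKM, above Hmgcs1 at 10.1 FPKM, and Acat2 at 3.45 FPKM lay above Cyp51 at 2.25 FPKM.

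**Figure D1:**
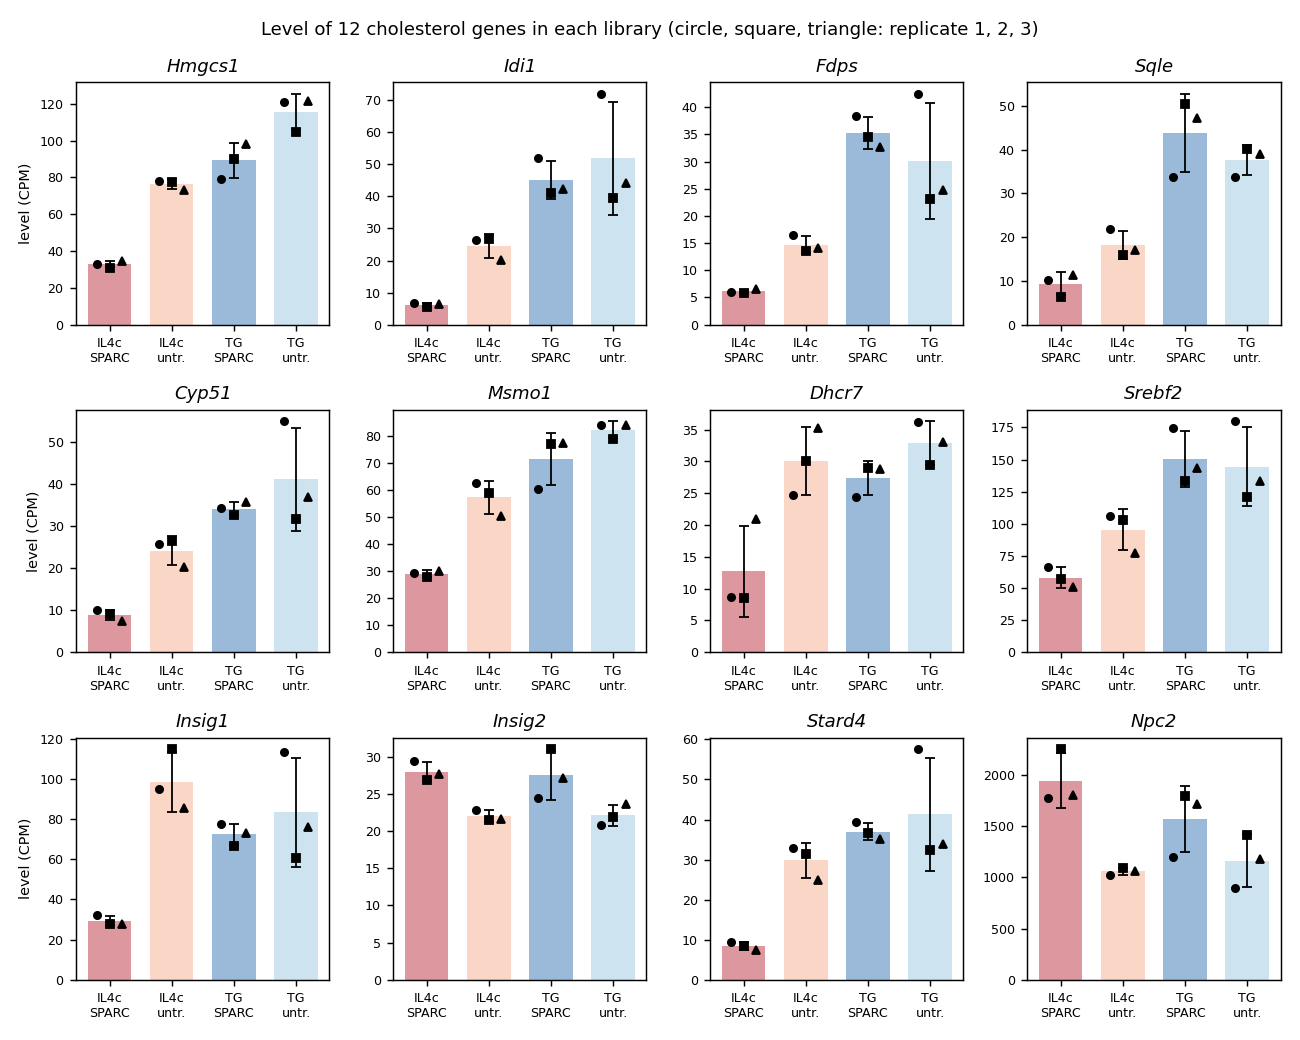
Level in CPM, on a linear axis from 0, of 12 of the genes in each library, with bars for the group mean, error bars for the SD (n = 3) and symbols for the replicate number. In IL4c SPARC cells Hmgcs1, Idi1, Fdps, Sqle, Cyp51, Msmo1, Dhcr7, Srebf2, Insig1 and Stard4 lie below all libraries of the other 3 groups. Npc2 averages 1945 CPM in IL4c SPARC cells.

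In IL4c macrophages, SPARC was followed by lower RNA of a large share of the pathway. Of the 27 genes 12 fell and 2 rose at an adjusted p under 0.05 (quasi-likelihood F test of edgeR, adjusted over all tested genes by Benjamini and Hochberg), against a background of 27.8% of all tested genes called in this comparison, with 12.7% of all tested genes lower and 15.1% higher. The median log2 difference of the 27 genes was -0.40, beside -0.0014 for all tested genes. The summed level of the 19 synthesis enzymes was 270.4 ± 16.6 CPM in IL4c SPARC cells and 428 ± 18.3 CPM in IL4c untreated cells (SD, n = 3 each). The genes that fell were Hmgcs1, Idi1, Fdps, Fdft1, Sqle, Cyp51, Tm7sf2, Msmo1, Dhcr7, Srebf2, Insig1 and Stard4, and the genes that rose were Insig2 and Npc2. The IL4c SPARC and IL4c untreated libraries did not overlap for 25 of the 27 genes, where 50.4% of all tested genes did not overlap.

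Among the 8 enzymes of the mevalonate part, 3 fell, none rose and 5 did not pass the test. Hmgcs1, the synthase that makes HMG-CoA from acetoacetyl-CoA, had 33.1, 30.9 and 34.3 CPM in IL4c SPARC cells, against 78.2, 77.5 and 73.1 CPM in IL4c untreated cells. Its groups were far apart and tight within themselves. The log2 difference was -1.22 ± 0.09 (SE), 2.33-fold lower, with an adjusted p of 4.87e-05. Idi1, the isomerase that turns isopentenyl into dimethylallyl pyrophosphate, had 6.80, 5.58 and 6.40 CPM with SPARC, against 26.4, 26.8 and 20.1 CPM without it. This was the lowest log2 difference of the 27 genes, -1.96 ± 0.23, 3.90-fold lower, with an adjusted p of 0.000336. Fdps, which joins isoprenoid units into farnesyl pyrophosphate, had 6.04, 5.90 and 6.46 CPM with SPARC, against 16.5, 13.6 and 14.1 CPM without it. Every SPARC library lay below every untreated library, with a log2 difference of -1.26 ± 0.21 and an adjusted p of 0.00198. The remaining enzymes were Acat2, the thiolase at the head of the route, the kinases Mvk and Pmvk, the decarboxylase Mvd, and Ggps1, which makes geranylgeranyl pyrophosphate. Their log2 differences lay between -0.25 for Pmvk and 0.57 for Mvd, with adjusted p from 0.0962 to 0.357. All 5 had libraries that did not overlap, with Acat2, Mvd and Ggps1 above and Mvk and Pmvk below in SPARC cells.

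Among the 11 enzymes of the sterol part, 6 fell and 5 did not pass the test, and all 11 log2 differences were below 0. Fdft1, squalene synthase and the enzyme that commits the route to sterol, had 7.65, 6.69 and 7.77 CPM in IL4c SPARC cells, against 12.8, 14.3 and 12.4 CPM in IL4c untreated cells. Its log2 difference was -0.84 ± 0.19 (adjusted p = 0.0107), and limma on log2(FPKM + 1) without a filter gave an adjusted p of 0.0506. Sqle, the epoxidase and a rate-limiting step of sterol synthesis, had 10.3, 6.42 and 11.3 CPM with SPARC, against 21.8, 15.9 and 17.0 CPM without it. The SPARC library numbered 2 was the lowest, and the groups did not overlap (log2 difference -0.97 ± 0.22, adjusted p = 0.0108). Cyp51, the lanosterol demethylase, had 9.94, 9.03 and 7.46 CPM with SPARC, against 25.6, 26.5 and 20.3 CPM without it. It was 2.74-fold lower (log2 difference -1.45 ± 0.20, adjusted p = 0.000815), the lowest difference of this part. Tm7sf2, a sterol reductase that acts after Cyp51, had 1.74, 1.70 and 1.67 CPM with SPARC, against 2.92, 4.12 and 3.62 CPM without it. Its log2 difference was -1.06 ± 0.21 (adjusted p = 0.00507).

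Msmo1, the methylsterol monooxygenase that starts the removal of methyl groups, had 29.2, 27.7 and 30.2 CPM in IL4c SPARC cells, against 62.6, 58.9 and 50.5 CPM in IL4c untreated cells. It was 1.97-fold lower (log2 difference -0.98 ± 0.11, adjusted p = 0.000276). Dhcr7, the last reductase of the route that ends in cholesterol, had 8.68, 8.51 and 20.9 CPM with SPARC, against 24.6, 30.1 and 35.3 CPM without it. The SPARC library numbered 3 was high beside the other two, yet still below every untreated library. The log2 difference of Dhcr7 was -1.24 ± 0.31 (adjusted p = 0.0153), and it missed the threshold without the IL4c SPARC library numbered 1 (adjusted p = 0.0564) or numbered 2 (adjusted p = 0.055). The 5 others were Lss, which closes squalene epoxide into lanosterol, the dehydrogenase Nsdhl, the ketoreductase Hsd17b7, the isomerase Ebp and the desaturase Sc5d. Their log2 differences lay between -0.49 for Sc5d and -0.14 for Hsd17b7, with adjusted p from 0.0631 to 0.747. Lss had 10.9, 8.22 and 10.4 CPM with SPARC, against 13.8, 12.5 and 12.6 CPM without it. Nsdhl had 10.5, 10.4 and 11.2 CPM with SPARC, against 12.6, 11.4 and 13.1 CPM without it. Ebp had 30.3, 28.7 and 30.7 CPM with SPARC, against 33.4, 35.2 and 34.3 CPM without it. Of these 5 genes only Hsd17b7 had overlapping libraries, with 6.17, 5.26 and 6.38 CPM with SPARC, against 7.53, 7.84 and 4.23 CPM without it.

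Of the 4 control genes, 2 fell and 1 rose. Srebf2, which encodes SREBP2, had 66.5, 57.0 and 50.9 CPM in IL4c SPARC cells, against 106, 103 and 77.3 CPM in IL4c untreated cells. The libraries numbered 3 were the lowest of both groups. The log2 difference was -0.71 ± 0.18 (adjusted p = 0.0167), and the call was lost without the IL4c SPARC library numbered 2 (adjusted p = 0.0556) or without the IL4c untreated library numbered 1 or 2 (adjusted p = 0.0614 and 0.0645). Limma on log2(FPKM + 1) without a filter gave an adjusted p of 0.0534 for Srebf2. Insig1, whose protein holds SCAP back and whose gene is itself a target of SREBP2, had 32.3, 27.6 and 27.8 CPM with SPARC, against 94.8, 115 and 85.3 CPM without it. It was 3.36-fold lower, with no overlap (log2 difference -1.75 ± 0.21, adjusted p = 0.000396). Insig2, the paralogue with the same holding role, moved the other way, with 29.4, 26.8 and 27.7 CPM with SPARC, against 22.9, 21.5 and 21.6 CPM without it. Its log2 difference was 0.35 ± 0.09 (adjusted p = 0.0194). The Insig2 call was lost when any of 6 libraries was left out in turn, namely IL4c SPARC 1 or 3, IL4c untreated 2 or 3, TG SPARC 3 and TG untreated 2, with adjusted p from 0.0509 to 0.105. Scap, the escort itself, had 32.1, 31.2 and 32.3 CPM with SPARC, against 31.8, 35.2 and 33.2 CPM without it, and its groups overlapped (log2 difference -0.07 ± 0.08).

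Of the 4 genes of movement and storage, 1 fell and 1 rose. Stard4, a soluble carrier of sterol between membranes, had 9.55, 8.41 and 7.41 CPM in IL4c SPARC cells, against 33.0, 31.5 and 24.9 CPM in IL4c untreated cells. It was 3.52-fold lower (log2 difference -1.82 ± 0.22, adjusted p = 0.000396). Npc2, the lysosomal protein that hands cholesterol to NPC1, had 1773, 2253 and 1808 CPM with SPARC, against 1019.5, 1090.2 and 1065 CPM without it. Its log2 difference was 0.88 ± 0.21 (adjusted p = 0.0114). When both of the IL4c libraries numbered 3 were left out it was 0.95 (adjusted p = 0.0705). Npc1, the membrane transporter of the pair, had 445, 351 and 439 CPM with SPARC, against 499, 485 and 489 CPM without it. Soat1, the acyltransferase that makes cholesteryl ester, had 661, 575 and 663 CPM with SPARC, against 806, 766 and 906 CPM without it. Both lay below their untreated libraries without overlap, but neither passed the test (log2 difference -0.25 ± 0.30 for Npc1 and -0.38 ± 0.29 for Soat1).

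Libraries of the same injection and the same number deviated together from their group means. The numbers were therefore read as pairing SPARC with untreated libraries within an injection, which the labels do not state. Pair by pair, 20 of the 27 genes were lower in 3 of 3 IL4c pairs and 5 were higher in 3 of 3. The same was not counted over all tested genes, so these counts are not read as particular to the pathway. With the number as a block, 20 of the 27 genes were called, 16 lower and 4 higher, where 45.2% of all tested genes were called in that fit, 22.4% lower and 22.8% higher. The block added Lss, Sc5d, Npc1 and Soat1 as lower, with log2 differences of -0.41, -0.51, -0.26 and -0.38, and Acat2 and Mvd as higher, with 0.39 and 0.56 (adjusted p from 0.00295 to 0.0388). For 5 of the 27 genes, reads of an overlapping gene may not be told apart from their own. In 4 of them the other gene lies on the opposite strand and the strand setting of the counts is not given in the sources used here, and for Tm7sf2 it lies on the same strand. Fdft1 overlaps Ctsb, whose counts were far higher and whose log2 difference was -0.72 ± 0.29 (adjusted p = 0.0934). Cyp51 overlaps Akap9 (0.25 ± 0.06), Tm7sf2 overlaps Vps51 (-0.13 ± 0.07), Npc1 overlaps Rmc1 (0.33 ± 0.11) and Ggps1 overlaps Arid4b (-0.13 ± 0.10).

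**Figure D2:**
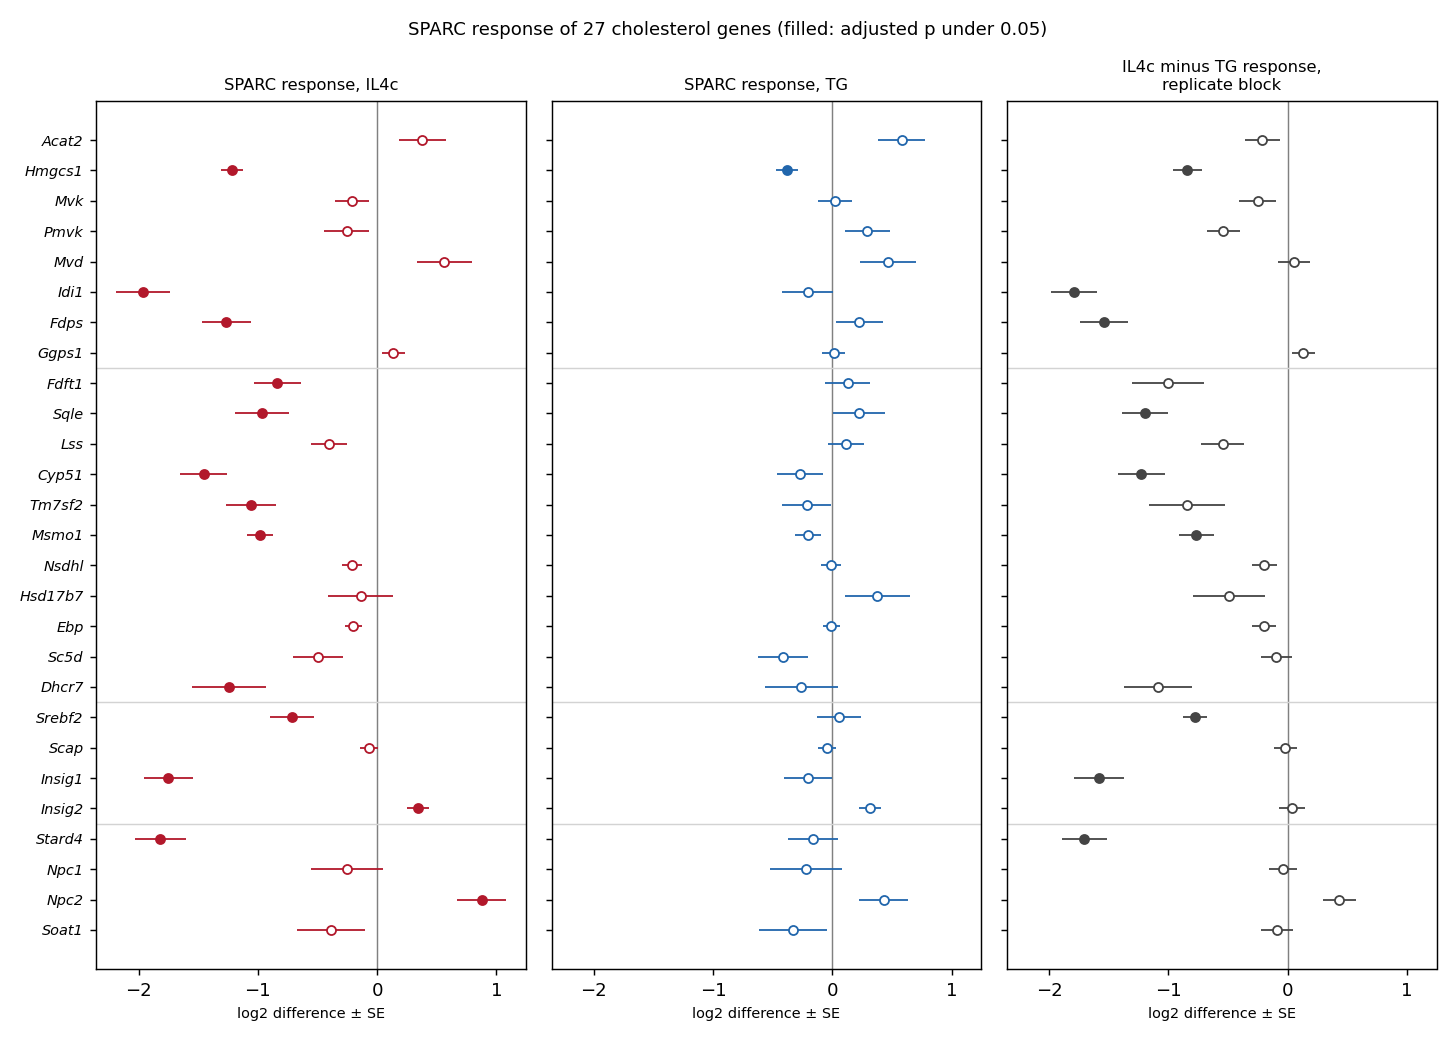
Log2 difference between SPARC and untreated cells, with its SE, for the 27 genes in pathway order in IL4c cells and in TG cells, and the IL4c response minus the TG response with the replicate number as a block, all on the same axis. Filled points passed an adjusted p of 0.05, which 14 genes do in IL4c cells, 1 in TG cells and 9 in the difference. The IL4c and TG panels are from the fit without the block, in which 0 genes passed for the difference.

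In TG macrophages 1 of the 27 genes was called after SPARC, Hmgcs1, which fell, where 11.3% of all tested genes were called, 4.52% of all tested genes lower and 6.73% higher. Hmgcs1 had 79.2, 90.1 and 98.2 CPM in TG SPARC cells, against 121, 105 and 121 CPM in TG untreated cells. The groups did not overlap, and the log2 difference was -0.38 ± 0.09 (adjusted p = 0.0283). The call was lost when any of 7 libraries was left out, namely each TG untreated library, TG SPARC 1 or 2 and IL4c SPARC 1 or 3, with adjusted p from 0.0576 to 0.118. The median log2 difference of the 27 genes was -0.01, beside -0.03 for all tested genes. The 19 enzymes summed to 568 ± 18.9 CPM in TG SPARC cells and 609 ± 63.4 CPM in TG untreated cells (SD, n = 3 each), a gap inside the spread of the untreated group. TG libraries did not overlap for 5 of the 27 genes, where 30.4% of all tested genes did not overlap.

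Of the genes that fell in IL4c cells, 9 overlapped between TG SPARC and TG untreated libraries, and Hmgcs1, Msmo1 and Dhcr7 did not. Idi1 had 51.9, 41.1 and 42.2 CPM in TG SPARC cells, against 72.0, 39.5 and 44.3 CPM in TG untreated cells. Insig1 had 77.4, 66.5 and 72.9 CPM with SPARC, against 113, 60.4 and 75.9 CPM without it. Stard4 had 39.3, 36.6 and 35.1 CPM with SPARC, against 57.6, 32.4 and 34.0 CPM without it. In all 3 genes the TG untreated library numbered 1 was far above its group. The rest of the libraries overlapped for Idi1 and Insig1, while for Stard4 the other untreated libraries lay below every SPARC library. Cyp51 had 34.2, 32.5 and 35.6 CPM with SPARC, against 54.9, 31.6 and 36.8 CPM without it. Its untreated library numbered 1 was also far above its group, and the rest overlapped. Srebf2 had 175, 133 and 144 CPM with SPARC, against 180, 121 and 133 CPM without it, and the libraries numbered 1 were the highest of both groups. The log2 differences of these 5 genes lay between -0.27 and 0.06, each with a 95% interval that held 0, the widest reaching from -0.68 to 0.27 for Idi1.

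Among the other genes, no difference but that of Hmgcs1 passed the test in TG cells. Fdps had 38.4, 34.6 and 32.8 CPM in TG SPARC cells, against 42.5, 23.1 and 24.7 CPM in TG untreated cells. Fdft1 had 20.7, 26.5 and 22.8 CPM with SPARC, against 29.0, 16.5 and 18.5 CPM without it. Sqle had 33.8, 50.5 and 47.3 CPM with SPARC, against 33.7, 40.1 and 39.1 CPM without it. The library numbered 1 was the highest untreated library for Fdps and Fdft1 and the lowest for Sqle. Msmo1 had 60.5, 77.0 and 77.4 CPM with SPARC, against 84.1, 79.0 and 84.3 CPM without it, and Dhcr7 had 24.3, 29.0 and 28.9 CPM, against 36.2, 29.4 and 33.0 CPM. These 2 did not overlap, with log2 differences of -0.20 ± 0.11 and -0.26 ± 0.31 that missed the threshold. Tm7sf2 had 3.96, 5.51 and 5.44 CPM with SPARC, against 7.24, 5.16 and 4.91 CPM without it. Insig2 had 24.5, 31.02 and 27.1 CPM with SPARC, against 20.8, 21.9 and 23.6 CPM without it, a log2 difference of 0.31 ± 0.09 (adjusted p = 0.0538) with no overlap. Npc2 had 1201, 1799 and 1711 CPM with SPARC, against 895, 1417 and 1180 CPM without it, with the libraries numbered 1 the lowest of both groups (log2 difference 0.43 ± 0.21).

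The TG libraries numbered 1 stood apart for many of the genes. The TG untreated library numbered 1 was the highest of its group for 17 of the 27 genes and the lowest for 8, Npc1 and Soat1 among the 8. How often it was highest or lowest over all tested genes was not counted, so no trait of the pathway is read from this. Npc1 had 243, 483 and 498 CPM in TG SPARC cells, against 287, 555 and 584 CPM in TG untreated cells. Soat1 had 522, 896 and 888 CPM with SPARC, against 560, 1219 and 1121 CPM without it. With the number as a block, 6 of the 27 genes were called, where 27.3% of all tested genes were called in that fit, 14.3% higher and 13.1% lower. Acat2, Mvd, Insig2 and Npc2 rose, by 0.60, 0.51, 0.31 and 0.44 on the log2 scale, and Hmgcs1 and Sc5d fell, by 0.38 and 0.42 (adjusted p from 0.00591 to 0.0227). Without the TG untreated library numbered 1, Acat2, Mvd and Fdps were called higher (log2 difference 0.81, 0.81 and 0.56), and without the TG SPARC library numbered 1 Insig2 was (0.43). Without both, 5 of the 27 genes were called, all higher, where 2260 of 15467 tested genes were called, 1343 higher and 917 lower.

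Without SPARC, part of the pathway stood lower in IL4c than in TG macrophages. Of the 27 genes 10 were called lower in IL4c untreated cells and none higher, where 21.0% of all tested genes were called, 10.8% lower and 10.2% higher. The median log2 difference was -0.41, beside -0.05 for all tested genes. The 10 genes were Hmgcs1, Idi1, Fdps, Fdft1, Sqle, Cyp51, Tm7sf2, Msmo1, Nsdhl and Srebf2. The 19 enzymes summed to 428 ± 18.3 CPM in IL4c untreated cells and 609 ± 63.4 CPM in TG untreated cells (SD, n = 3 each). The libraries did not overlap for 13 of the 27 genes, where 39.0% of all tested genes did not overlap. The injected agent, the number of injections and the days to collection differ together between these groups and cannot be told apart.

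Of the mevalonate enzymes, Idi1 averaged 24.4 ± 3.75 CPM in IL4c untreated cells and 51.9 ± 17.6 CPM in TG untreated cells (SD, n = 3 each), a log2 difference of -1.09 ± 0.22 (adjusted p = 0.00867). Fdps was 2.04-fold lower (-1.03 ± 0.20, adjusted p = 0.00823) and Hmgcs1 1.52-fold lower (-0.60 ± 0.09, adjusted p = 0.00315). These 3 were called with every library left out in turn, but Fdps was not when only the 2 groups were fitted (adjusted p = 0.0542). Of the sterol enzymes, Sqle averaged 18.2 ± 3.15 CPM in IL4c untreated cells and 37.6 ± 3.45 CPM in TG untreated cells (log2 difference -1.04 ± 0.22, adjusted p = 0.0113). Cyp51, Fdft1, Tm7sf2 and Msmo1 differed by -0.77, -0.70, -0.70 and -0.53 on the log2 scale, with adjusted p from 0.00955 to 0.0379. Nsdhl had 12.6, 11.4 and 13.1 CPM in IL4c untreated cells, against 18.6, 15.8 and 16.8 CPM in TG untreated cells (log2 difference -0.46 ± 0.08, adjusted p = 0.00602). Its groups did not overlap, as in each of the 10 genes called.

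Among the control genes, Srebf2 averaged 95.4 ± 15.8 CPM in IL4c untreated cells and 145 ± 30.95 CPM in TG untreated cells (SD, n = 3 each; log2 difference -0.60 ± 0.18, adjusted p = 0.0426). Insig1 did not pass the test, with 98.3 ± 15.1 CPM in IL4c untreated cells and 83.2 ± 27.3 CPM in TG untreated cells (0.24 ± 0.20), nor did Insig2 (-0.01 ± 0.09, 95% interval -0.21 to 0.20). The 4 genes of movement and storage did not pass the test, with log2 differences from -0.47 for Stard4 to 0.05 for Npc1. The count of genes called lay between 5 and 11 when a library was left out, and Srebf2 lost its call in 8 of those 12 fits and Tm7sf2 in 11. Fdft1 and Cyp51 lost theirs when any 1 of the IL4c untreated libraries was left out, Sqle without IL4c untreated 2 or TG untreated 2, and Msmo1 without TG untreated 2. Without TG untreated 1, Mvd and Insig1 were called higher in IL4c untreated cells (log2 difference 0.69 and 0.54) and Ebp lower (-0.28).

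**Figure D3:**
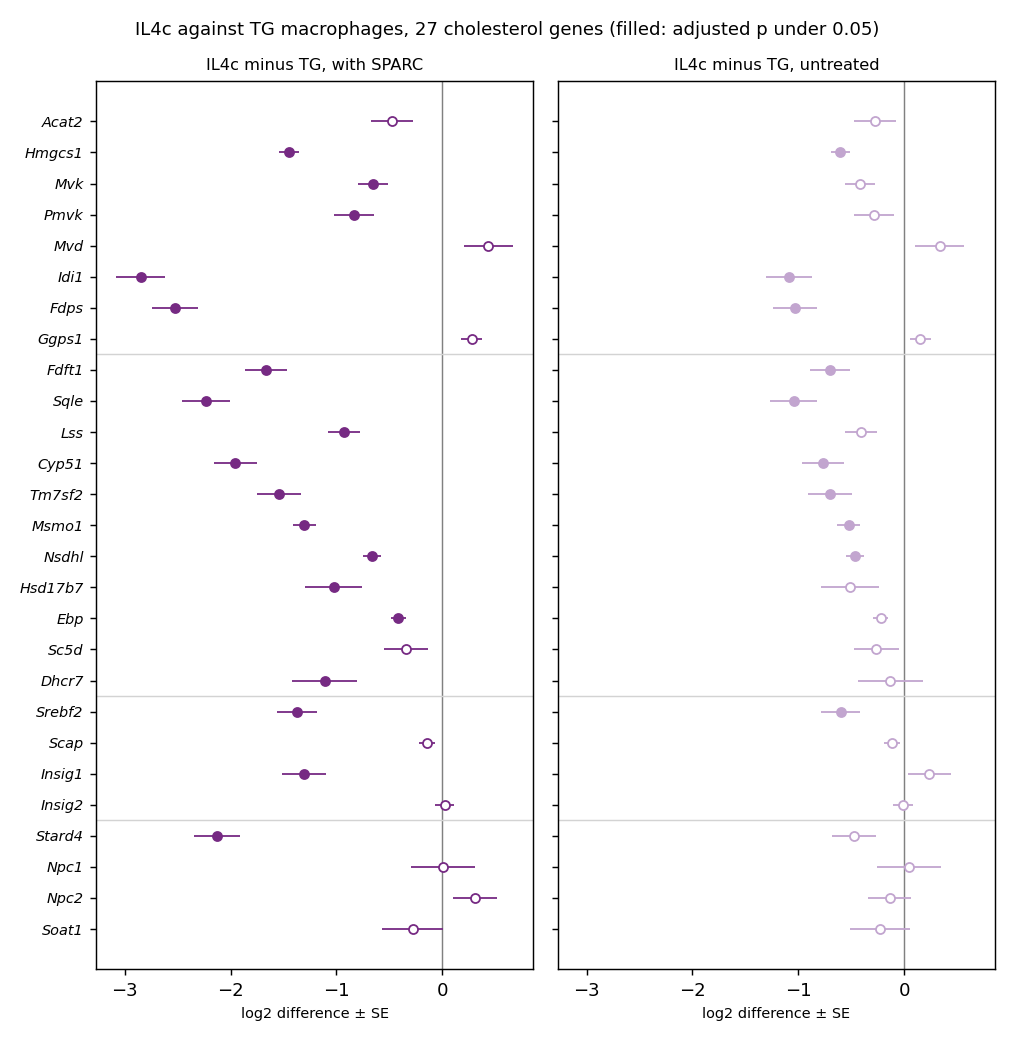
Log2 difference between IL4c and TG cells, with its SE, for the 27 genes in pathway order, with SPARC on the left and untreated on the right, on the same axis. Filled points passed an adjusted p of 0.05, 18 of them with SPARC and 10 untreated, and each filled point lies below 0.

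With SPARC, 18 of the 27 genes were called lower in IL4c than in TG cells and none higher, where 21.0% of all tested genes were called, 10.1% lower and 10.9% higher. The median log2 difference was -0.93, beside -0.03 for all tested genes, and the libraries did not overlap for 21 of the 27 genes, where 41.4% of all tested genes did not. The 19 enzymes summed to 270.4 ± 16.6 CPM in IL4c SPARC cells and 568 ± 18.9 CPM in TG SPARC cells (SD, n = 3 each). This comparison and the 2 SPARC comparisons share libraries, so their values are given side by side only. Idi1 averaged 6.26 ± 0.63 CPM in IL4c SPARC cells and 45.1 ± 5.91 CPM in TG SPARC cells, 7.19-fold lower (log2 difference -2.85 ± 0.23, adjusted p = 0.00013). Fdps was 5.75-fold lower (-2.52 ± 0.21), Sqle 4.70-fold (-2.23 ± 0.23), Stard4 4.37-fold (-2.13 ± 0.22) and Cyp51 3.87-fold (-1.95 ± 0.20). Srebf2 averaged 58.1 ± 7.86 CPM in IL4c SPARC cells and 150 ± 21.5 CPM in TG SPARC cells (log2 difference -1.37 ± 0.19, adjusted p = 0.00128), and Insig1 29.2 ± 2.63 CPM and 72.3 ± 5.45 CPM (-1.31 ± 0.21, adjusted p = 0.00262).

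Several enzymes were called in this comparison alone of the 4 between groups. Mvk had 6.20, 6.39 and 6.30 CPM in IL4c SPARC cells, against 10.5, 9.45 and 9.73 CPM in TG SPARC cells (log2 difference -0.65 ± 0.14, adjusted p = 0.0106). Pmvk had 4.43, 4.59 and 4.42 CPM in IL4c SPARC cells, against 10.2, 6.49 and 7.26 CPM in TG SPARC cells (-0.83 ± 0.19, adjusted p = 0.0128). The IL4c values were nearly flat, and the TG SPARC library numbered 1 was the highest for both. Lss averaged 9.82 ± 1.41 CPM in IL4c SPARC cells and 18.7 ± 0.30 CPM in TG SPARC cells (-0.93 ± 0.15, adjusted p = 0.00308). Ebp averaged 29.9 ± 1.04 CPM and 39.8 ± 0.20 CPM (-0.41 ± 0.07, adjusted p = 0.00377). Hsd17b7 had 15.1, 11.3 and 9.94 CPM in TG SPARC cells, beside 12.3, 7.14 and 8.48 CPM in TG untreated cells, and was 2.04-fold lower in IL4c SPARC than in TG SPARC cells (-1.03 ± 0.27, adjusted p = 0.0253). The calls of Hsd17b7 and Dhcr7 (-1.11 ± 0.31, adjusted p = 0.0311) were each lost in 4 of the 12 fits without 1 library, both without IL4c SPARC 1, IL4c SPARC 2 or TG SPARC 2, Hsd17b7 also without TG SPARC 1 and Dhcr7 also without TG SPARC 3 (adjusted p from 0.0517 to 0.109). Hsd17b7 was also lost in the 3 limma fits on FPKM (adjusted p from 0.0691 to 0.12), and Dhcr7 when only the 2 groups were fitted (adjusted p = 0.0927). The remaining calls were Hmgcs1 (-1.44), Fdft1 (-1.66), Tm7sf2 (-1.54), Msmo1 (-1.30) and Nsdhl (-0.66), with adjusted p from 4.84e-05 to 0.00136. Scap, Insig2, Npc1, Npc2, Soat1, Sc5d, Acat2, Mvd and Ggps1 did not pass the test, with log2 differences from -0.48 to 0.44.

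**Figure D4:**
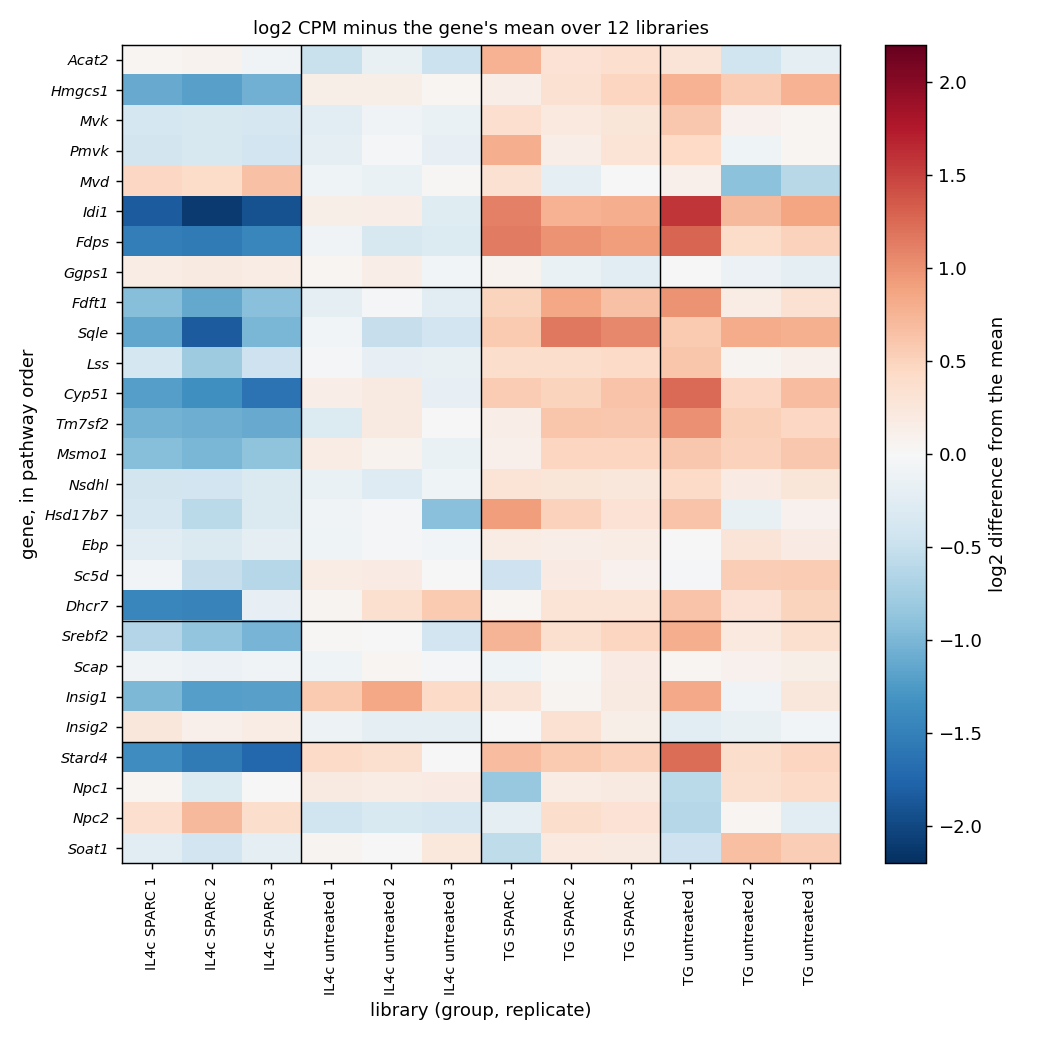
Log2 CPM of each of the 27 genes minus the gene's mean over the 12 libraries, one column per library and genes in pathway order, in 4 blocks by role. The 3 IL4c SPARC columns are low for most enzymes and for Insig1 and Stard4, while Mvd, Insig2 and Npc2 lie above their mean there.

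Whether the SPARC response differed between the injections was tested as an interaction, the IL4c response minus the TG response. Under edgeR's quasi-likelihood test without the pairing, 0 of the 27 genes and 0 of all 15232 tested genes (0.00%) were called, although 13 of the 27 genes and 10.6% of all tested genes had an unadjusted p under 0.05. DESeq2 called 9 of the 27 genes, where it called 2.85% of the 12757 genes to which it gave an adjusted p. With the replicate number as a block, edgeR called 9 of the 27 genes, all lower in IL4c, where 3.10% of all tested genes were called and 1.60% were lower. The median interaction of the 27 genes in the unpaired fit was -0.52, beside 0.02 for all tested genes.

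The 9 genes called with the block were Hmgcs1, Idi1, Fdps, Sqle, Cyp51, Msmo1, Srebf2, Insig1 and Stard4. DESeq2 called each of these except Srebf2, which no alternative other than the block called. For Idi1, SPARC over untreated was -1.95, -2.27 and -1.65 on the log2 scale in the IL4c pairs, against -0.47, 0.06 and -0.07 in the TG pairs. The blocked interaction of Idi1 was -1.79 ± 0.20 (adjusted p = 0.0149). Stard4 had -1.79, -1.90 and -1.75 in the IL4c pairs, against -0.55, 0.18 and 0.05 in the TG pairs (interaction -1.70 ± 0.19, adjusted p = 0.016). For both genes all IL4c pairs lay below all TG pairs. Insig1 had -1.55, -2.06 and -1.62 in the IL4c pairs, against -0.55, 0.14 and -0.06 in the TG pairs (interaction -1.58 ± 0.21, adjusted p = 0.0225). Srebf2 had -0.67, -0.85 and -0.60 in the IL4c pairs, against -0.04, 0.14 and 0.11 in the TG pairs (interaction -0.78 ± 0.10, adjusted p = 0.0208). Insig2 was higher with SPARC in all pairs of both injections, with 0.36, 0.32 and 0.36 in the IL4c pairs, against 0.23, 0.50 and 0.20 in the TG pairs, and an unpaired interaction of 0.03 (95% interval -0.26 to 0.32). In the unpaired fit the count was 7 without the TG untreated library numbered 1, 2 without the TG SPARC library numbered 1 and 11 without both. Without both, 836 of 15467 tested genes were called, 478 of them lower, against 0 of 15232 with all libraries. The share of all genes called in the fits without 1 library is not given here.

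A wider list of 36 genes around the pathway, all tested, moved in both directions. In IL4c cells SPARC was followed by 9 higher and 5 lower of the 36, where 15.1% of all tested genes were higher and 12.7% lower, with a median log2 difference of 0.10. Scd2, a stearoyl-CoA desaturase, rose the most of those named, with 287, 293 and 211 CPM in IL4c SPARC cells, against 34.0, 23.5 and 26.3 CPM in IL4c untreated cells (log2 difference 3.24 ± 0.36, adjusted p = 0.000294). Srebf1, which encodes the SREBP1 factor of fatty acid synthesis, had 82.97, 86.0 and 74.7 CPM with SPARC, against 55.9, 54.8 and 47.3 CPM without it (0.63 ± 0.10, adjusted p = 0.00167). Neither gene overlapped between groups, and both lay opposite to Srebf2. Erlin1, an endoplasmic reticulum protein tied to INSIG and SCAP, rose by 0.56 on the log2 scale, and Icmt, the methyltransferase of prenylated proteins, by 0.49. In TG cells 2 of the 36 rose and none fell, where 11.3% of all tested genes were called. They were Scd2 (1.78 ± 0.34, adjusted p = 0.0119) and Srebf1 (0.38 ± 0.10, adjusted p = 0.0379).

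Between injections without SPARC, 7 of the 36 genes were higher and 6 lower in IL4c cells, where 10.2% of all tested genes were higher and 10.8% lower. Erlin2 differed by 0.35 on the log2 scale, Ufd1, a partner in the degradation of endoplasmic reticulum proteins, by -0.37, and Acly, which makes the acetyl-CoA that feeds the route, by 0.96. Fads2, a fatty acid desaturase, differed by -3.47 at levels under 1 CPM in every library. With SPARC, 4 were higher and 4 lower in IL4c than in TG cells, a share near the 21.0% of all tested genes that were called. Mylip, whose protein marks lipoprotein receptors for breakdown, had 54.9, 65.6 and 47.7 CPM in IL4c SPARC cells, against 26.0, 16.1 and 19.2 CPM in TG SPARC cells (log2 difference 1.46 ± 0.25, adjusted p = 0.00406). Erlin1 differed by 0.76 and Aacs, which activates acetoacetate for synthesis, by -0.64. In the interaction 0 of the 36 genes were called in the unpaired edgeR fit, and 2 higher and 2 lower with the block.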

How the data were processed

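The deposited table of expected counts holds 1 value per gene and library, estimated by the authors and not scaled, and 19.2% of its nonzero values are not whole. The deposited FPKM table holds the authors' values per kilobase, scaled to library size. STAR, RSEM, bcl2fastq 1.8.4 and CASAVA are named as tools, per the submitters' processing notes. Genome build, annotation and strand setting were not given in the sources used here. Genes were found by symbol, and 98.9% of the gene IDs matched GENCODE M21 on GRCm38.

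Expected counts were rounded and tested with edgeR 4.0.16 in R 4.3.3 (TMM scaling, filterByExpr with a minimum count of 10, robust quasi-likelihood F test, Benjamini-Hochberg over 15232 genes, threshold 0.05) in 1 fit of the 4 groups with 8 residual degrees of freedom. CPM are on TMM-scaled library sizes; ± after a log2 difference is its SE. The scripts were tested on simulated data. DESeq2 1.42.0 and limma 3.58.1 on log2(FPKM + 1), other scalings, filters and left-out libraries were the alternatives. The labels number the replicates: within an injection, deviations from group means of same-numbered libraries correlated at 0.505 to 0.753 over 6 pairs, differently numbered ones at -0.716 to 0.612 and same-numbered ones across injections at -0.242 to 0.262, so the block was read as a pairing within an injection only. No libraries looked like copies of each other.

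The 27 genes, the 36 related genes and the marker lists were chosen with earlier results of these data known. Genes past the threshold in any comparison, and Srebf2, are given library by library in at least 1 comparison; of the related genes, at most the 4 called with the smallest p are named in each comparison.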

Additional observations from a re-analysis of the deposited data

Results flagged for a closer look

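For 9 genes, the SPARC response differed between the injections in edgeR's quasi-likelihood test with the replicate number as a block (adjusted p from 0.0149 to 0.0448). The IL4c response minus the TG response was, on the log2 scale, -0.84 for Hmgcs1, -1.79 for Idi1, -1.54 for Fdps, -1.19 for Sqle, -1.23 for Cyp51 and -0.76 for Msmo1. It was -0.78 for Srebf2, -1.58 for Insig1 and -1.70 for Stard4. For Hmgcs1, the response was -1.24, -1.33 and -1.09 in the 3 IL4c pairs, against -0.61, -0.22 and -0.31 in the 3 TG pairs. The same edgeR test without the block called none of the 9 (adjusted p of at least 0.147). DESeq2 called each of the 9 except Srebf2. With 3 libraries in each group, no formal outlier test was run on single values.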

How the results depend on the processing

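No log2 difference of any of the 27 genes that was called changed its sign under any alternative. In IL4c SPARC against IL4c untreated cells, the 14 genes called became 12 to 17 when 1 library was left out and 20 when both TG number 1 libraries were, with Acat2, Mvd, Lss, Sc5d and Soat1 among the gains. Limma on log2(FPKM + 1) without a filter called 11 of the 27 genes, where 3371 of 26143 tested genes were called. Fdft1, Srebf2 and Insig2 were not among the 11 (adjusted p = 0.0506, 0.0534 and 0.0838). In IL4c SPARC against TG SPARC cells, the 18 became 16 to 21 without 1 library. For the fits without 1 library, the share of all tested genes called is not given here. In TG SPARC against TG untreated cells, the 1 gene called became 3 with DESeq2, 0 without a low-count filter, 2 with a filter of 5 CPM in 3 libraries, 0 with only the groups compared, 6 with the replicate block, 0 to 3 without 1 library, 5 with both TG number 1 libraries left out and 0 with both IL4c number 3 libraries left out. Over all tested genes, DESeq2 called 2632 of 15109, the fit without a low-count filter 1229 of 26086 and the 5 CPM filter 1736 of 10411. With only the groups compared 505 of 14229 were called, with the block 4165 of 15232. Without both TG number 1 libraries 2260 of 15467 were called, and without both IL4c number 3 libraries 1647 of 15674. In IL4c untreated against TG untreated cells, the 10 became 5 with only the groups compared, 5 to 11 without 1 library and 5 without both IL4c libraries numbered 3. Over all tested genes, 1631 of 14312 were called with only the groups compared and 2525 of 15674 without both IL4c libraries numbered 3. For the difference of the SPARC responses, the 0 became 9 with DESeq2, 9 with the replicate block, 0 to 7 without 1 library and 11 without both TG libraries numbered 1. DESeq2 called 364 of 12757 genes for this difference, and the block 472 of 15232. Leaving out both TG libraries numbered 1 also raised the calls over all genes, from 0 to 836 for this difference. They rose from 4237 to 6507 for SPARC in IL4c cells and from 1714 to 2260 for SPARC in TG cells. The block moved the count in IL4c cells to 20 and in the comparisons of injections to 9 untreated and 19 with SPARC, where the numbers pair no libraries. Of all 15232 tested genes, 6880, 3706 and 3841 were called with the block in these comparisons, in that order. Scaling by total counts moved the median of all tested genes in IL4c untreated against TG untreated cells by -0.11 on the log2 scale, called 14 of the 27 genes lower and 0 higher, and split all calls into 1154 higher and 2790 lower, against 1548 and 1649 with TMM. In TG SPARC against TG untreated cells it split them into 758 higher and 938 lower, against 1025 and 689 with TMM. The cause of these changes was not tested. Every one of the 27 genes had at least 64.8 counts in each library, and groups of 3 limit the precision.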
